A study of Mus musculus with 4 samples.

Results

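The 10 genes described here encode 4 ligands (Dll1, Dll4, Jag1 and Jag2), the 4 mammalian receptors (Notch1, Notch2, Notch3 and Notch4) and a pair of target genes (Hes1 and Hey1) of the Notch pathway. They were chosen by gene symbol, with earlier results of these data known, and are 10 of the 32285 genes counted in each library. All 10 symbols had a row in every library.

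Notch signalling runs between neighbouring cells. A membrane-bound Delta-like or Jagged ligand on one cell binds a Notch receptor on the next, the receptor is cleaved, and its intracellular domain moves to the nucleus, where it joins the DNA-binding protein RBPJ and switches on targets such as the Hes and Hey repressors. In the thymus the pathway is best known for Dll4 on cortical epithelium, which commits incoming progenitors to the T cell lineage, while in blood vessels Dll4, Notch1 and Notch4 shape arteries and sprouts and Notch3 acts in the smooth muscle and pericytes around them.

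The study compared thymic stroma of mice homozygous for the LacZ allele of Foxn1 (Z/Z) with that of wild-type mice (WT, called mock in the sample titles), with 2 libraries of each. All mice were untreated C57BL/6 animals of 6 months, and each suspension came from several pooled thymi from which CD45+ blood cells had been depleted, so a library is not 1 animal. The sex label reads male whereas the protocol speaks of females. Foxn1 encodes the transcription factor that builds the thymic epithelium, and its LacZ allele is carried in every cell although Foxn1 RNA was found mainly in epithelial cells.

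Single-cell RNA was counted as unique molecular identifiers (UMIs) by a 3′ method, and counts were summed over all cells of a type in each library and given per 1000000 UMIs of that sum (CPM). A 3′ method does not support comparing levels between genes, so each gene is compared only with itself. After limits on detected genes, mitochondrial share and doublets, 1458, 456, 4455 and 3477 cells remained in WT 1, WT 2, Z/Z 1 and Z/Z 2, with 8468086 to 50705511 UMIs per library. WT 2 stood apart by its few cells. WT 1 and WT 2 shared 202 called barcodes and Z/Z 1 and Z/Z 2 shared 249, against 0 to 6 between genotypes, and keeping shared barcodes once altered none of the calls on the 10 genes in the epithelial, fibroblast and endothelial fits.

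Cells were clustered and named from marker lists as thymic epithelial cells (TEC, 552, 104, 1963 and 1549 cells in the order WT 1, WT 2, Z/Z 1, Z/Z 2), fibroblasts (FB, 599, 192, 1206 and 735), endothelial cells (EC, 110, 25, 697 and 669) and mural cells (69, 11, 412 and 316). No Notch gene was a marker. Values in what follows keep this library order. Genotypes were tested in TEC, FB and EC, and in the classes with at least 20 cells in every library, with edgeR's quasi-likelihood test on the sums and Benjamini-Hochberg adjustment over all genes tested; mural cells were given no test since WT 2 held 11. Nothing states that the libraries of a genotype came from separate experiments, so the p-values measure only the spread between these 4 libraries. The sums of different classes within a library share its depth, and orders of levels are given as descriptions without a test.

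Foxn1 itself was counted in TEC at 88.8, 116, 50.4 and 67.8 CPM, a log2 fold change of -0.64 (Z/Z over WT, SE 0.22, adjusted p = 0.0921, edgeR), and at no more than 5.24 CPM in any library of FB, EC or mural cells. Both Z/Z libraries lay below both WT libraries without passing the threshold. These sums mix classes whose shares differ between genotypes. Within the mTEC2-like class described below, Foxn1 was counted at 95.4, 162, 118 and 119 CPM, with overlapping groups (-0.12, SE 0.31, adjusted p = 0.898, edgeR). The part of the gene that 3′ counts read may lie outside the change made by the LacZ allele, so this does not test the genotype labels.

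For every gene but Hes1 at least one lineage did not overlap the next in level. Notch4 and Dll4 were endothelial, Notch3 was mural, Notch2 was low in endothelium and similar elsewhere, Jag2 was at or near 0 in fibroblasts, and Hes1 overlapped at each step of its order.

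**Figure D1:**
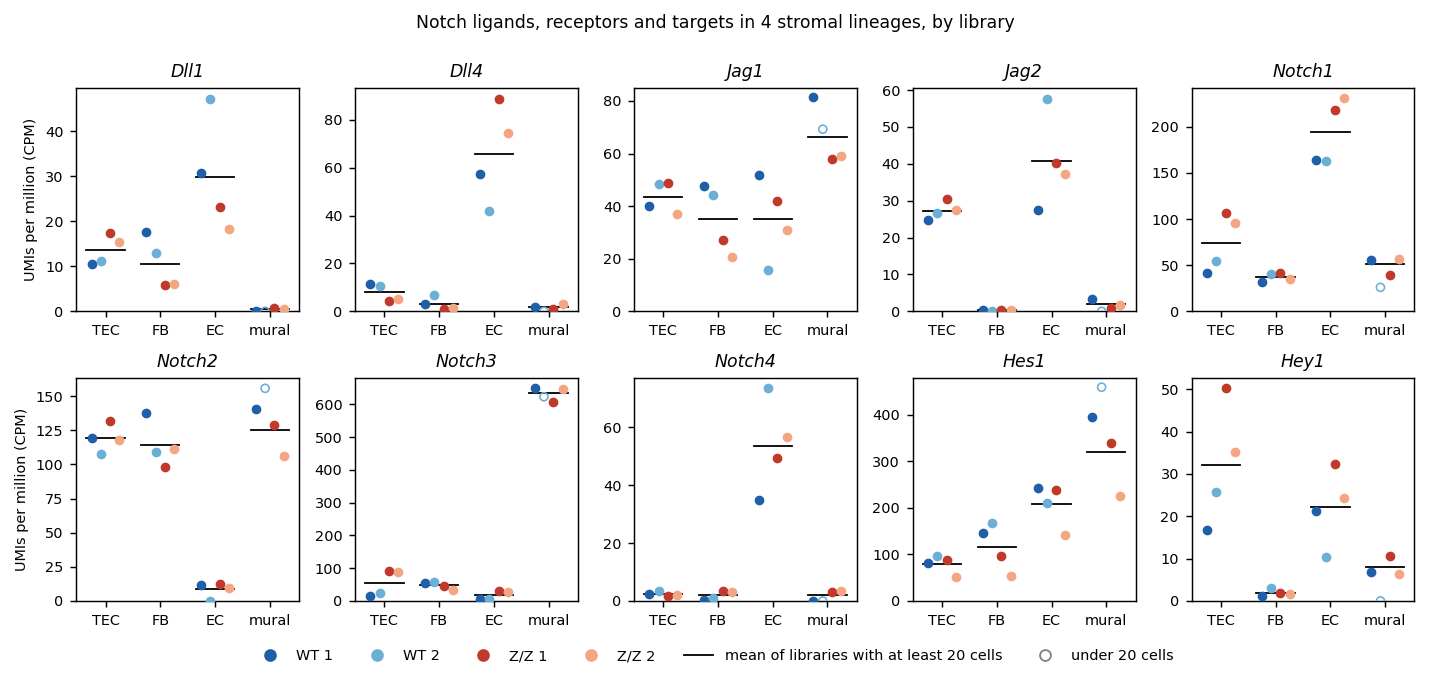
Levels of the 10 Notch genes in 4 stromal lineages. Each panel is 1 gene, the vertical axis is the lineage's level in CPM, each point is 1 library, and the line is the mean of the libraries with at least 20 cells (WT 2 mural, with 11 cells, is drawn hollow and left out of the mean). Mural Notch3 lies between 606 and 649 CPM, above every library of the other lineages, and endothelial Notch4 lies between 35.01 and 73.4 CPM while no other lineage exceeds 3.50.

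Dll4, the ligand through which cortical epithelium instructs T cell progenitors, lies on the plus strand of chromosome 2 (chr2:119325784-119335962, GRCm38). Its promoter is shown because Foxn1 is known to regulate Dll4 in this tissue, and is printed from 250 bases before the RefSeq start up to it (chr2:119325534-119325783, plus strand, GRCm38.p6), with no capitals because neither motif searched below was found.
Dll4: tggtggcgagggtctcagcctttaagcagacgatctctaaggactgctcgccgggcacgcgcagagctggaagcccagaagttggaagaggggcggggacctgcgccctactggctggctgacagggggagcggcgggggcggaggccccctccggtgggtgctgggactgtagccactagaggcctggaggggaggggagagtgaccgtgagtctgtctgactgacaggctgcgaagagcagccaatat

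Dll4 was highest in EC, at 57.3, 41.9, 88.9 and 74.5 CPM. It was counted in TEC at 11.3, 10.7, 4.37 and 5.08 CPM. In FB it was counted at 2.99, 6.63, 1.16 and 1.34 CPM. The endothelial libraries did not overlap any other lineage (mean 65.7 ± 20.4, SD, n = 4, which was 8.33 times the TEC mean), whereas TEC, FB and mural ranges overlapped in turn. With every cell thinned to 2000 UMIs, 12.1%, 8.0%, 15.8% and 12.5% of EC held a Dll4 UMI (28.2%, 24.0%, 36.4% and 32.6% before thinning). The thinned share in Z/Z 1 mural cells, which should lack Dll4, was 0.244% (1 of 410, exact 95% interval 0.00617 to 1.35%), and that in Z/Z 1 TEC was 0.519% (10 of 1928, 0.249 to 0.952%). In Z/Z 2 the TEC share was 1.01% (15 of 1487, 0.566 to 1.66%), against 0 of 311 mural cells, which allows a share of up to 0.965%. These intervals cover counting error only. The intervals of TEC and mural cells overlapped in both Z/Z libraries, with 1 and 0 mural cells behind them, and the endothelial shares lay above both.

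Within TEC, Dll4 was highest among the named classes in cTEC-like cells, the cortical cells, at 32.0, 20.3 and 26.0 CPM in the 3 libraries with at least 20 such cells (WT 1, Z/Z 1 and Z/Z 2). The mTEC2-like class, which carries Aire and other medullary markers, held 11.2, 16.2, 13.1 and 6.06 CPM. The age-associated classes named aaTEC1-like and aaTEC2-like held 1.73 and 2.65 CPM and 0.303 and 0.875 CPM in the Z/Z libraries. The cTEC-like libraries of both genotypes were thus above every aaTEC-like library. Within EC, arterial-like cells held 78.8, 111 and 118 CPM and capillary-like cells 56.2, 104 and 84.4 CPM, and these ranges overlapped. Venous-like cells were lower, at 38.1, 22.8 and 13.2 CPM.

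Between genotypes, TEC Dll4 was 2.12 times higher in WT and the groups did not overlap, but the difference missed the threshold (log2 fold change -1.08, SE 0.30, adjusted p = 0.0566, edgeR). It passed with empty-droplet RNA subtracted (-1.22, adjusted p = 0.0469), and was -0.38 in thinned cells (adjusted p = 0.798) and -0.67 without both aaTEC-like classes (adjusted p = 0.184). Among cells of the mTEC2-like class the groups overlapped (log2 fold change -0.54, adjusted p = 0.676). The cTEC-like class made up 12.9% and 4.89% of WT and 3.36% and 7.77% of Z/Z epithelial UMIs, and the mTEC2-like class 55.7% and 58.2% of WT and 6.30% and 11.7% of Z/Z. In EC, Dll4 leaned the other way, with both Z/Z libraries above both WT libraries (log2 fold change 0.61, SE 0.26, adjusted p = 0.246). The difference between these genotype differences passed its own test (EC minus TEC 1.87 on the log2 scale, SE 0.40, adjusted p = 0.0136, edgeR with lineage and genotype in 1 fit), where 6.5% of all genes passed, and it was lost without WT 1 (2.34, adjusted p = 0.0564) or without Z/Z 1 (1.65, adjusted p = 0.10).

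Dll1, the other Delta-like activating ligand, was highest in EC, at 30.8, 47.2, 23.2 and 18.4 CPM. TEC held 10.5, 11.2, 17.4 and 15.3 CPM, and FB held 17.6, 12.9, 5.79 and 6.04. The lowest endothelial library was above the highest of TEC and FB, which overlapped each other, and mural cells held at most 0.788 CPM. In FB, Dll1 fell by 1.32 on the log2 scale in Z/Z (SE 0.27, adjusted p = 0.0370, edgeR), to 2.50 times below WT. It was the only 1 of the 9 Notch genes tested in FB to pass, against 2.82% of all genes tested there (1.67% higher and 1.15% lower).

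In WT fibroblasts Dll1 lay mostly in a single cluster. FB cluster 3, which had too low a marker score to be named, held 250, 95, 13 and 17 cells and 72.1% and 70.3% of the Dll1 UMIs of WT fibroblasts. Without it the difference was -0.34 and did not pass (adjusted p = 0.581, edgeR). That cluster held mostly WT cells, out of 599, 192, 1206 and 735 fibroblasts, so leaving it out also altered which cells were compared. Whether Dll1 changed within cells or only the shares of the clusters changed was not tested. The call was also lost on leaving out any 1 of the 4 libraries (-1.06 to -1.48) and in thinned cells (-0.96, adjusted p = 0.347). Capsular-like fibroblasts held at most 0.752 CPM of Dll1 in any library and medullary-like fibroblasts 3.91 to 6.25. In TEC the groups did not overlap and leaned towards Z/Z (0.74, SE 0.24, adjusted p = 0.0792, edgeR), and FB minus TEC differed by -2.05 (SE 0.34, adjusted p = 0.00143), where 12.8% of all genes passed. That interaction was lost without Z/Z 1 (-1.88, adjusted p = 0.0519). The TEC value of Dll1 depended on the classes included, at -0.31 without mTEC2-like cells (adjusted p = 0.469) and 1.38 without both aaTEC-like classes, where it passed (adjusted p = 0.0358). The mTEC2-like class held Dll1 at 1.45 and 1.48 CPM in WT, and 55.7% and 58.2% of WT epithelial UMIs.

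Among epithelial cells Dll1 was highest in clusters that met no marker rule, TEC cluster 5 at a mean of 43.2 CPM (28.5 to 65.7, 3 libraries) and TEC cluster 4 at 41.1 CPM (2 libraries). Their ranges overlapped each other and those of the next clusters. Of the named classes, cTEC-like cells held 16.3, 20.3 and 22.5 CPM in WT 1, Z/Z 1 and Z/Z 2 and aaTEC2-like cells 0.909 and 2.62 CPM in Z/Z.

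Jag1, a Jagged ligand with roles in vessel walls and epithelia, was counted in all 4 lineages. Mural cells were highest at 81.6, 57.9 and 59.0 CPM in the 3 libraries with at least 20 cells. TEC held 40.0, 48.5, 48.9 and 37.1 CPM and EC 52.0, 15.7, 41.9 and 30.9. The mural libraries were above every other, and TEC, EC and FB overlapped. Arterial-like cells were the highest class at 170, 114 and 82.5 CPM, against 30.2, 24.1 and 19.3 in capillary-like cells, with no overlap between them. TEC cluster 6, an unnamed epithelial cluster, followed at 88.7 and 118 CPM.

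In FB, Jag1 was counted at 47.6, 44.3, 27.2 and 20.7 CPM. The Z/Z libraries were below the WT libraries, and the difference lay at the edge of the threshold (-0.87, SE 0.19, adjusted p = 0.0504, edgeR). It passed under 8 of 15 alternatives, among them DESeq2 (-0.88, adjusted p = 0.0373) and leaving out FB cluster 3 (-0.93, adjusted p = 0.0465, edgeR). It did not pass on leaving out any 1 library (-0.70 to -1.08). In capsular-like fibroblasts it was counted at 60.9, 47.2, 29.3 and 22.5 CPM, again without overlap and again just over the threshold (-1.04, SE 0.24, adjusted p = 0.0540, edgeR). It passed without WT 2 (-1.14, adjusted p = 0.00981). WT capsular-like cells came mostly from another cluster than the Z/Z ones. No Notch gene of the 5 tested in that class passed with edgeR or DESeq2, 2 had an unadjusted p under 0.05, and 3.61% of all genes passed with edgeR. The same was found in FB cluster 4, an unnamed cluster, where none of 5 Notch genes tested passed with either tool, 1 had an unadjusted p under 0.05 and 3.36% of all genes passed.

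Jag2, the second Jagged ligand, was endothelial and epithelial. EC held 27.6, 57.7, 40.3 and 37.2 CPM and TEC 24.7, 26.6, 30.4 and 27.4. These overlapped, whereas FB held at most 0.478 CPM and mural cells at most 3.47, and with so few UMIs Jag2 was not tested in FB. TEC cluster 6 was the highest class at 118 CPM in both Z/Z libraries, followed by arterial-like cells at 48.5, 101 and 115 CPM. cTEC-like cells held 97.2, 66.6 and 57.7 CPM, and aaTEC2-like cells 1.82 and 1.75 CPM in Z/Z. Neither TEC (0.32, SE 0.19, adjusted p = 0.264, edgeR) nor EC (0.15, SE 0.34, adjusted p = 0.864) passed the genotype test.

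**Figure D2:**
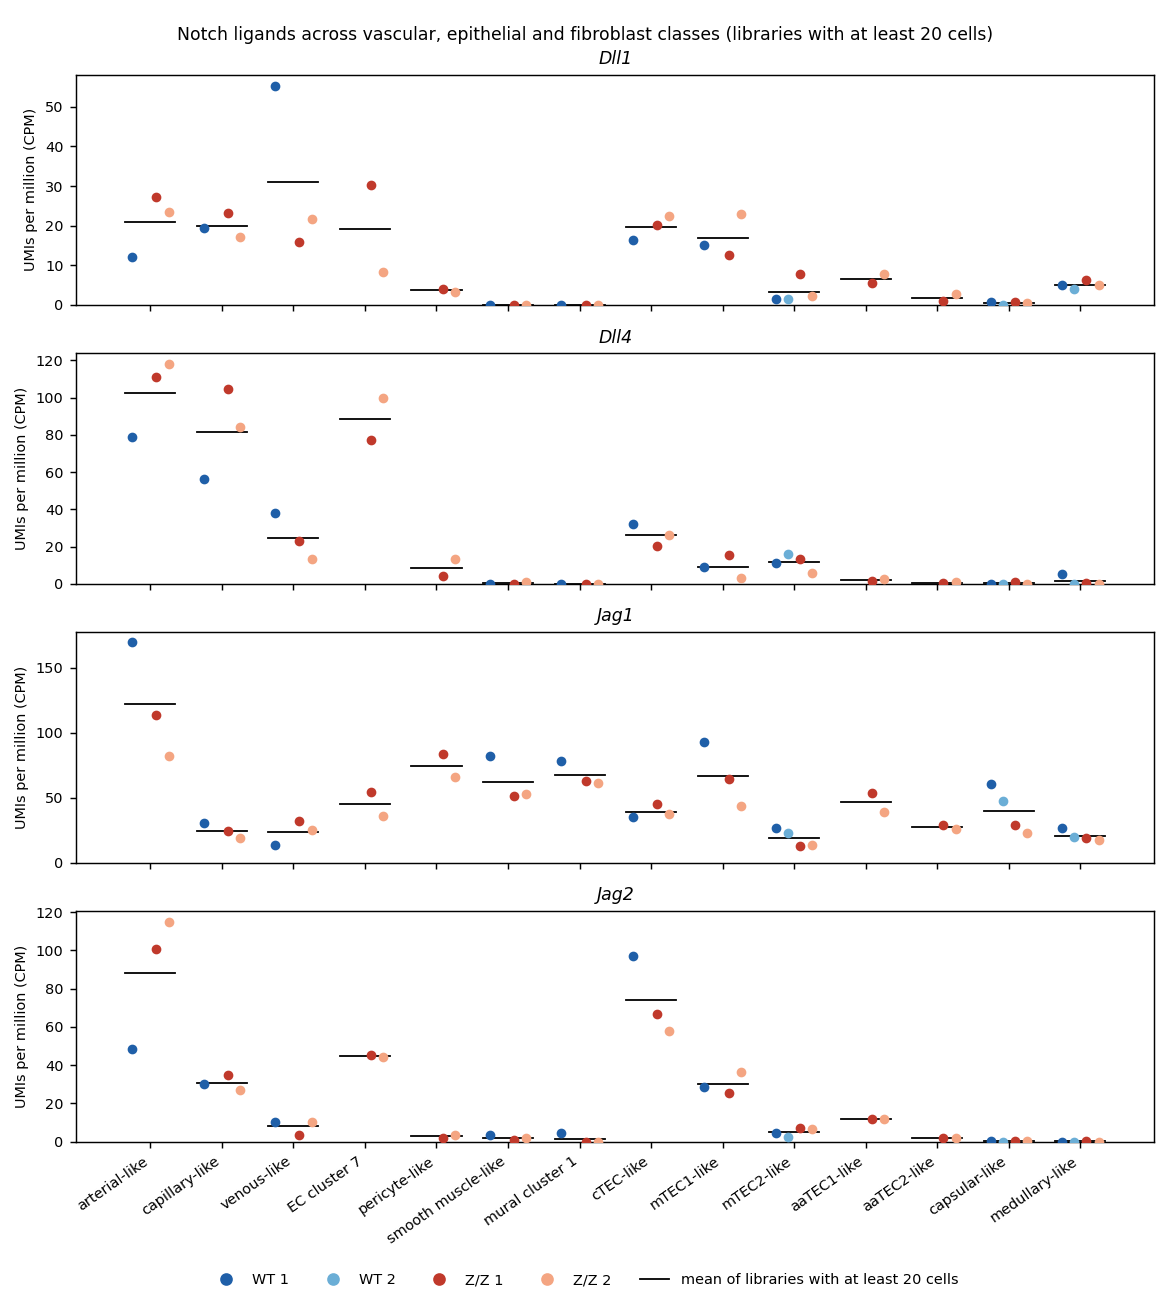
The 4 ligands across classes of endothelial, mural, epithelial and fibroblast cells. The vertical axis is the class's level in CPM, each point is 1 library with at least 20 cells of that class, and the line is the mean where 2 or more such libraries exist. Dll4 is highest in arterial-like and capillary-like cells and EC cluster 7, Jag1 and Jag2 in arterial-like cells among those drawn, and Dll4 and Jag2 stand at or under 2 CPM in aaTEC2-like cells.

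Notch1, the receptor that progenitors use to receive the Dll4 signal, is also expressed by stromal cells, and lies on the minus strand of chromosome 2 (chr2:26457903-26516663, GRCm38). Notch3, the receptor of the vessel wall, lies on the minus strand of chromosome 17 (chr17:32120820-32166852). Both promoters are shown because both receptors rose in the same comparison. They were read on the minus strand from 250 bases before the RefSeq start up to it (chr2:26503823-26504072 and chr17:32166891-32167140, GRCm38.p6). Capitals mark a match to GACGC. The RefSeq start used for Notch1 differs from the start of the gene span given above, so its window lies inside that span. The Notch3 window lies before its span.
Notch1: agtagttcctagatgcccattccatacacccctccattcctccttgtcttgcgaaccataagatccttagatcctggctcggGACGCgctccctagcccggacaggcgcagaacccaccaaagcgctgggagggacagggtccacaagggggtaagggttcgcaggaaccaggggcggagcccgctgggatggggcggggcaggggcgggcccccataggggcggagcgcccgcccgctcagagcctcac
Notch3: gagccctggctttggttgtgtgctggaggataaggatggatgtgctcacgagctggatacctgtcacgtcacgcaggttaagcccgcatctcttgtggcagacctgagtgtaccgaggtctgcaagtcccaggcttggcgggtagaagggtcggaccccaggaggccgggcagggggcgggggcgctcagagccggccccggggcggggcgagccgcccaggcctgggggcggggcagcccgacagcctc

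A pair of motifs was searched on both strands of such windows, TGGGAA (the core bound by RBPJ) and GACGC (a core reported for FOXN1). The first was present in 21.6% and the second in 22.6% of 32851 promoter windows of 250 bases. Of the 10 genes 8 had an entry, 9 windows in all. None of these held the RBPJ core, so no window held both. The FOXN1 core was found once in 1 window each of Notch1 (168 bases before the RefSeq start), Jag1 (168, reverse strand) and Dll1 (9). The Notch1 and Dll1 windows with the core lie inside the annotated genes, and that of Jag1 reaches into its gene. Of their 250 bases, 2 (Notch1), 124 (Jag1) and 153 (Dll1) were exons of coding genes. The other Dll1 window, before the annotated start, held no core. Hes1 and Hey1 had no entry.

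Notch3 showed the largest genotype difference of the 10 genes in TEC. It was counted at 15.1, 24.9, 90.8 and 87.4 CPM, and both Z/Z libraries were far above both WT libraries. It rose 5.13-fold in Z/Z (log2 fold change 2.36, SE 0.27, adjusted p = 0.00932, edgeR). In TEC 3 of the 10 Notch genes passed, all higher in Z/Z, against 21.5% of all 18869 genes tested (9.73% higher and 11.7% lower), so a share of this size was near the background of that comparison. The median log2 fold change of the 10 genes was 0.30 and that of all genes tested 0.00.

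The share of TEC with a Notch3 UMI, after thinning to 2000 UMIs, was 2.94% (exact 95% interval 1.69 to 4.73%, 544 of 552 cells kept), 5.77% (2.15 to 12.1%, 104 of 104), 15.8% (14.2 to 17.5%, 1928 of 1963) and 16.8% (14.9 to 18.8%, 1487 of 1549). Before thinning it was 15.8%, 25.0%, 37.2% and 38.6%. In EC, the lineage with the lowest Notch3 level, the thinned share was 0.935%, 0%, 2.63% and 2.13%, the 0 being none of 25 cells. WT epithelial cells were the deeper ones, with medians of 16864 and 17716 UMIs per cell against 6741 and 7051, so the order of the shares runs opposite to that of the depths.

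Notch3 in TEC was concentrated in the aaTEC2-like class. Its level there was 305 and 370 CPM in Z/Z 1 and Z/Z 2 and 225 CPM in the 12 such cells of WT 1, while WT 2 had none. The class held 53.9% and 53.0% of the epithelial Notch3 UMIs of the Z/Z libraries but 16.0% and 12.5% of their epithelial UMIs, and 14.5% of the Notch3 UMIs of WT 1. In the mTEC2-like class Notch3 was counted at 8.29, 6.64, 7.71 and 6.99 CPM, with overlapping groups (log2 fold change -0.05, SE 0.47, adjusted p = 0.975, edgeR). No Notch gene of the 7 tested in mTEC2-like cells passed with edgeR or DESeq2, 1 had an unadjusted p under 0.05, and 0.00802% of all genes passed with edgeR.

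The aaTEC2-like class carried little of the epithelial markers. The 6 TEC markers summed to 544 and 752 CPM there in Z/Z, against 7462 to 10950 CPM over all TEC, and 4 fibroblast markers summed to 579 and 829 CPM. The 6 mural markers, all but 1 of them detected in Z/Z 1 and all in Z/Z 2, summed to 1482 and 1605 CPM. Of these Rgs5 stood at 86.3 and 107 CPM against 1690 and 1393 in mural cells of those libraries, and Kcnj8 at 0 and 0.437. Both were below their levels over all TEC there. Myh11 stood at 159 and 152 CPM, above the 62.7 and 92.1 of all TEC, against 3044 and 3108 in mural cells. Acta2 stood at 40.9 and 45.5 CPM, above the 23.6 and 23.8 of all TEC, against 6624 and 6951 in mural cells. The rest, which was most of the sum, was Myl9 and Tagln. Together these stood well above their summed level over all TEC in both Z/Z libraries, and their part was not tested. Over all TEC the mural markers summed to 437, 236, 441 and 481 CPM, with WT 1 close to Z/Z 1, and the fibroblast markers to 117, 106, 211 and 213 CPM, higher in both Z/Z libraries. The part of cells carrying fibroblast markers was not tested as such, and that of the aaTEC2-like class was measured by leaving it out.

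Without aaTEC2-like cells Notch3 still rose in TEC (1.54, adjusted p = 0.0355, edgeR), and likewise without both aaTEC-like classes (1.18, adjusted p = 0.0401). Without mTEC2-like cells, which were the bulk of WT epithelium, it stood at 1.60 and missed the threshold (adjusted p = 0.0514). In cTEC-like cells Notch3 was counted at 3.14 CPM in WT 1 and at 43.4 and 33.1 CPM in Z/Z, in mTEC1-like cells at 21.1 against 44.4 and 56.3, and in TEC cluster 8 at 56.0 against 118 and 150. With 1 WT library of at least 20 cells in each of these classes there was no test. The cells of TEC cluster 8 also differed in median mitochondrial share, at 13.7% in WT 1 against 5.25% and 6.49% in Z/Z. Leaving out Z/Z 1 also lost the call (2.32, adjusted p = 0.0601), along with that of every other gene in TEC, though 4557 genes then had an unadjusted p under 0.05.

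**Figure D3:**
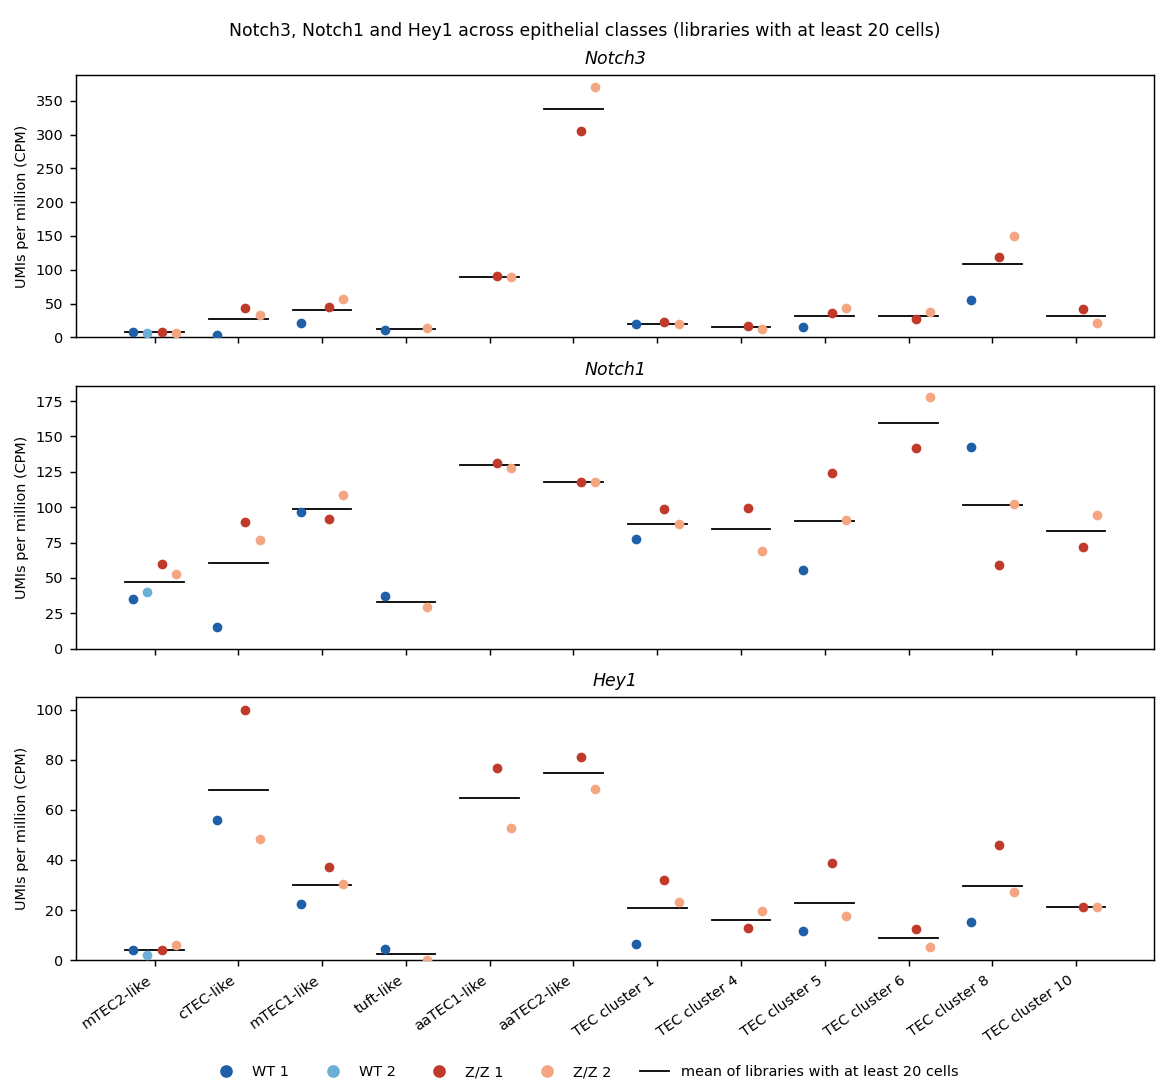
Notch3, Notch1 and Hey1 across epithelial classes. The vertical axis is the class's level in CPM, each point is 1 library with at least 20 cells of that class, and the line is the mean where 2 or more such libraries exist. Notch3 is highest in aaTEC2-like cells, at 305 and 370 CPM in Z/Z, and under 10 CPM in mTEC2-like cells of all 4 libraries, while Hey1 is low in mTEC2-like cells and high in cTEC-like and both aaTEC-like classes.

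In mural cells Notch3 was counted at 649, 606 and 648 CPM, and at 623 CPM in the 11 cells of WT 2. The genotypes overlapped there. This mean (634 ± 24.4, SD, n = 3) was 11.6 times that of TEC. Mural cluster 1, an unnamed cluster, held 800, 786 and 836 CPM, above smooth muscle-like cells at 580, 575 and 618 CPM. Pericyte-like cells held 521 and 590 CPM in Z/Z and overlapped the smooth muscle-like range.

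In EC Notch3 was counted at 7.43, 5.24, 31.9 and 26.9 CPM and rose 4.15-fold in Z/Z (2.05, SE 0.47, adjusted p = 0.0473, edgeR). It was the only 1 of 10 Notch genes to pass in EC, where 1.91% of all genes did (0.977% higher and 0.933% lower). Of the Notch3 UMIs, 86.8% in Z/Z 1 and 66.7% in Z/Z 2 came from EC cluster 7, which held 2, 1, 26 and 20 cells. That cluster was left unnamed because it carried mural markers as well as endothelial ones, with Rgs5 at 1422 and 1227 CPM and Cdh5 at 808 and 817 CPM in Z/Z, and its cells were deep, with medians of 23556 and 18255 UMIs against 5940 and 5490 for all EC. Without the cluster the difference was 1.01 and did not pass (adjusted p = 0.568). It also did not pass without WT 1 (2.63), Z/Z 1 (1.94) or Z/Z 2 (2.19), in thinned cells (2.05) or with empty-droplet RNA subtracted (1.53).

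In FB as a whole Notch3 was counted at 55.9, 58.2, 46.9 and 33.6 CPM and did not pass (-0.43, SE 0.19, adjusted p = 0.286, edgeR). Without FB cluster 3 this value was 0.25. In medullary-like fibroblasts, 71, 22, 231 and 245 cells, it was counted at 5.14, 7.82, 41.0 and 36.1 CPM and rose 6.93-fold in Z/Z (2.79, SE 0.47, adjusted p = 0.0185, edgeR). In that class 2 of 5 Notch genes tested passed, against 1.06% of all genes. The 6 mural markers summed to 38.5, 27.4, 55.5 and 47.7 CPM in these cells and the 5 endothelial markers to 24.4, 35.2, 21.9 and 29.9. Empty droplets held Notch3 at 33.3, 25.7, 76.8 and 83.9 CPM, and with their RNA subtracted the difference was 2.77 (adjusted p = 0.0172, edgeR). The share subtracted was only 1.31%, 0.888%, 1.49% and 2.01%, from haemoglobin genes, so the value could move little. The estimate from haematopoietic genes, not used because it was higher, was 2.5%, 2.1%, 2.16% and 11.3%. Capsular-like fibroblasts of the same libraries held 2.26, 3.37, 4.29 and 4.91 CPM. The medullary-like class is 1 cluster whose marker score of 0.504 lay just over the threshold of 0.5, and FB clusters 0, 3 and 4, with scores of 0.426, 0.391 and 0.408 for the same markers, were left out of it. Those clusters held Notch3 at 77.2 and 86.3 CPM in Z/Z (cluster 0), 84.2 and 84.5 CPM in WT (cluster 3) and 114, 66.3, 69.9 and 43.6 CPM (cluster 4), levels at or above those of the Z/Z medullary-like cells. The call was lost with DESeq2 (2.78, adjusted p = 0.0545), in thinned cells (2.86, adjusted p = 0.191) and without WT 1 (2.35, adjusted p = 0.0919).

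The genotype difference of Notch3 differed between FB and TEC by -2.81 (SE 0.26, adjusted p = 3.2e-05, edgeR) and between EC and FB by 2.55 (SE 0.46, adjusted p = 0.0315), where 0.34% of all genes passed. The first passed with every library left out in turn (-2.45 to -3.09). The second was lost without either WT library (3.28, adjusted p = 0.154, and 2.45, adjusted p = 0.0516) and rests on the endothelial sums that include EC cluster 7.

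Notch1 was highest in EC at 164, 162.5, 218 and 232 CPM, without overlap with the other lineages, which overlapped in turn. Arterial-like cells held 224, 287 and 334 CPM. Capillary-like cells held 160, 207 and 209 CPM, and venous-like cells 114, 145 and 173. The arterial-like libraries were above every capillary-like one. EC cluster 7, which carries mural markers as well, held 304 to 379 CPM in the Z/Z libraries, overlapping the arterial-like range. Both Z/Z libraries of EC were above both WT libraries, but the difference did not pass (0.46, SE 0.21, adjusted p = 0.268, edgeR).

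In TEC Notch1 was counted at 41.9, 54.1, 106 and 96.0 CPM, with no overlap, and rose 2.36-fold in Z/Z (1.24, SE 0.19, adjusted p = 0.0148, edgeR). Unlike Notch3 it was spread over classes, at 131 and 128 CPM in aaTEC1-like cells and 118 CPM in aaTEC2-like cells of both Z/Z libraries, and at 91.5 and 109 CPM in mTEC1-like cells. The unnamed TEC cluster 6 had the highest mean of the epithelial classes ranked, at 142 to 178 CPM in the Z/Z libraries. The mTEC2-like class held 35.2, 39.8, 60.1 and 52.6 CPM, again without overlap, and did not pass (0.59, SE 0.24, adjusted p = 0.377). In TEC the rise passed without both aaTEC-like classes (1.02, adjusted p = 0.0302) but not without mTEC2-like cells (0.89, adjusted p = 0.0732), without Z/Z 1 (1.16, adjusted p = 0.0910) or without Z/Z 2 (1.32, adjusted p = 0.0517).

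In FB Notch1 was counted at 31.3, 40.1, 41.6 and 35.1 CPM with overlapping groups (0.19, SE 0.20, adjusted p = 0.679, edgeR). The difference from the TEC rise passed (FB minus TEC -1.01, SE 0.24, adjusted p = 0.0141) but not without Z/Z 1 (-1.04, adjusted p = 0.130) or Z/Z 2 (-1.01, adjusted p = 0.114). Capsular-like fibroblasts held 3.01, 3.37, 15.4 and 10.7 CPM, which missed the threshold (2.13, SE 0.50, adjusted p = 0.0552) and passed it without WT 2 (2.19, adjusted p = 0.0262), and empty droplets held 36.6, 21.2, 83.9 and 61.8 CPM in the same order.

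Notch2, a receptor found in many tissues, was at a like level in epithelial, fibroblast and mural cells. TEC held 119, 108, 132 and 118 CPM, FB 138, 109.5, 98.3 and 112, and mural cells 141, 129 and 106, all overlapping. EC held 11.7, 0, 12.5 and 9.81 CPM, where the 0 in WT 2 stands for 25 cells. Capsular-like fibroblasts were the highest class at 267, 243, 230 and 221 CPM, above medullary-like ones at 54.8 to 74.3 CPM. The genotype did not separate Notch2 in TEC (0.28, adjusted p = 0.218), FB (-0.18, adjusted p = 0.631) or EC (0.26, adjusted p = 0.862) by edgeR.

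Notch4, the endothelial receptor, was counted in EC at 35.01, 73.4, 49.3 and 56.6 CPM, with a mean 23.4 times that of TEC. Its order within EC was arterial-like (48.5, 80.1 and 97.2 CPM), capillary-like (43.2, 52.5 and 66.6) and venous-like (10.4, 11.4 and 13.2), of which the first pair overlapped and venous-like cells did not. Genotypes overlapped in EC (0.24, SE 0.32, adjusted p = 0.725, edgeR). In FB it rested on 3, 3, 40 and 22 UMIs (0.358, 1.05, 3.31 and 2.95 CPM), and the difference did not pass (2.50, SE 0.66, adjusted p = 0.0875). The 5 endothelial markers summed to 16.0, 20.6, 23.2 and 27.0 CPM in the same cells and Cdh5, one of them, to 0.119, 0, 2.65 and 1.21, and their part in it was not tested. FB minus TEC nonetheless passed (3.09, SE 0.58, adjusted p = 0.00294) and was lost without WT 1 (2.51, adjusted p = 0.0780).

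Hes1, a repressor that Notch and other signals induce, was counted in mural cells at 394, 339 and 226 CPM. EC held 243, 210, 238 and 142 CPM, FB 146, 168, 96.7 and 54.1, and TEC 81.4, 95.7, 87.8 and 52.2. Neighbouring lineages overlapped at each step. Z/Z 2 was the lowest library in every lineage. Smooth muscle-like cells were the highest class at 478, 410 and 271 CPM, overlapping capillary-like cells at 402, 301 and 189.

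In FB both Z/Z libraries were below both WT libraries for Hes1, and the difference missed the threshold with edgeR (-0.99, SE 0.25, adjusted p = 0.0769) while passing with DESeq2 (adjusted p = 0.00669). In medullary-like fibroblasts Hes1 was counted at 181, 168, 88.7 and 66.8 CPM, without overlap, and fell by 1.10 on the log2 scale (SE 0.22, adjusted p = 0.0467, edgeR), to 2.14 times below WT. That call was lost with DESeq2 (adjusted p = 0.0854), with its size factors (adjusted p = 0.0557), in thinned cells (-1.18, adjusted p = 0.161), and without WT 1 (-1.05) or Z/Z 2 (-0.88). Hes1 in TEC overlapped (-0.19, SE 0.28, adjusted p = 0.663), and FB minus TEC passed at -0.77 (SE 0.23, adjusted p = 0.0446) but not with DESeq2's size factors (-0.67, adjusted p = 0.0711) or without Z/Z 1 or Z/Z 2.

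Hey1, a second target and repressor, was counted in TEC at 16.8, 25.8, 50.2 and 35.3 CPM. EC held 21.2, 10.5, 32.3 and 24.4 CPM and overlapped TEC, while FB held at most 3.14. In TEC it rose 2.28-fold in Z/Z without overlap (1.19, SE 0.31, adjusted p = 0.0468, edgeR), the smallest margin of the 3 calls there. It was lost without WT 1 (0.86), Z/Z 1 (0.90) or Z/Z 2 (1.43), without aaTEC2-like cells (adjusted p = 0.0841) and without mTEC2-like cells (0.17, adjusted p = 0.803).

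Within TEC the level of Hey1 differed widely between classes. cTEC-like cells held 55.8, 99.9 and 48.5 CPM in WT 1, Z/Z 1 and Z/Z 2, aaTEC1-like cells 76.6 and 52.6 CPM in Z/Z (193 and 140 CPM in the 15 and 10 WT cells), and aaTEC2-like cells 81.2 and 68.2. mTEC2-like cells held 2.21 to 6.06 CPM. Among all classes arterial-like cells were highest at 48.5, 114 and 102 CPM, overlapping the aaTEC2-like and cTEC-like ranges, while venous-like cells held 0 to 1.89 CPM.

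**Figure D4:**
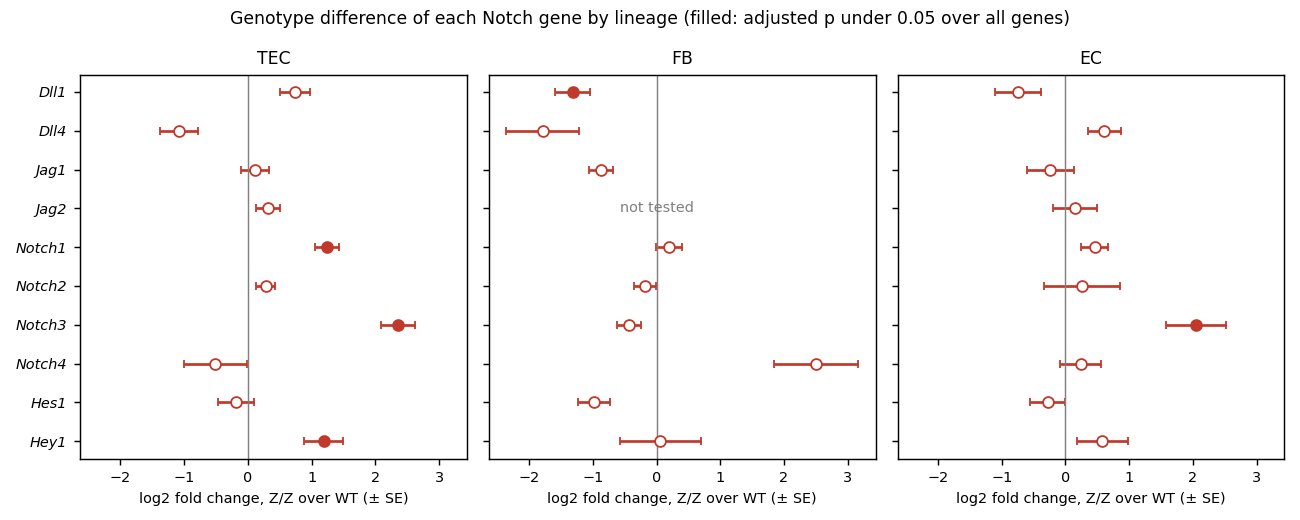
Log2 fold change of each Notch gene, Z/Z over WT, in TEC, FB and EC. Points are edgeR estimates from the library sums, bars are ± 1 SE, and filled points passed an adjusted p of 0.05 over all genes tested in that lineage (Jag2 was not tested in FB). Filled points are Notch1, Notch3 and Hey1 in TEC at 1.24, 2.36 and 1.19, Dll1 in FB at -1.32, and Notch3 in EC at 2.05.

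Of 47 other genes of the pathway, 44 were tested in TEC, and 4 rose and 7 fell in Z/Z (edgeR, adjusted p under 0.05), with a median log2 fold change of 0.06 against 0.00 for all genes. This share was near that of all genes tested in TEC (9.73% higher and 11.7% lower). All 11 calls were lost without Z/Z 1 (12 had an unadjusted p under 0.05) and without mTEC2-like cells (0 of 42, with 9 unadjusted), and 2 pathway genes passed without Z/Z 2. Those that rose were Numbl (1.88), a relative of the Notch antagonist Numb, the ubiquitin ligase Itch (0.83), and the nuclear coactivators Maml2 (0.76) and Kat2b (0.73). Those that fell included Rbpj (-0.75), the DNA-binding partner of the receptors, from 212 and 191 CPM to 110 and 107 (296, 257, 234 and 245 CPM within mTEC2-like cells, -0.21, adjusted p = 0.628, edgeR), and the receptor-cleaving proteases Adam10 (-0.69) and Adam17 (-0.79). The others were Dtx2 (-1.34), the glycosyltransferase Poglut1 (-1.36), the ligand-acting ubiquitin ligase Neurl3 (-1.68) and the atypical ligand Dlk1 (-3.60), which stood at 6.72, 35.2, 1.51 and 1.48 CPM. None of the 5 tested of the other targets (Hes, Hey and Nrarp genes) passed.

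Of the 38 tested in FB, Dlk1 rose (0.119, 4.18, 23.7 and 22.2 CPM, 4.15 on the log2 scale, SE 0.76, adjusted p = 0.0234, edgeR) and Adam10 fell (79.3, 79.2, 40.9 and 44.7 CPM, -0.82, SE 0.16, adjusted p = 0.0273). Adam10 also fell in capsular-like fibroblasts (-0.98, adjusted p = 0.0333), the only 1 of 31 tested there. These 2 of 38 stood against 2.82% of all genes tested in FB. No pathway gene passed in FB without Z/Z 1 or without Z/Z 2 (4 unadjusted in each), and 1 did without either WT library or with DESeq2. In EC none of 35 passed with edgeR or DESeq2, and 5 had an unadjusted p under 0.05.

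The genes whose level most resembled a Notch gene were sought over 87 sums (lineages and classes by library, at least 20 cells each), among 9920 genes of at least 10 CPM on average. The 87 sums share libraries and, between a lineage and its classes, cells, so the coefficients are descriptions. Notch3 was nearest to Gucy1a1 (r = 0.878), Foxs1 (0.822) and Pde5a (0.815), and Notch4 to Aqp7 (0.857), Myct1 (0.855) and Egfl7 (0.853), the last being one of the endothelial markers that named the cells. Jag2 was nearest to Fryl (0.903), Lama3 (0.868) and Eps8l2 (0.863), Notch2 to Tead3 (0.849), Dll4 to Ralb (0.816), Dll1 to Pltp (0.796), Notch1 to Myh9 (0.795) and Hey1 to Efna1 (0.733). Jag1 and Hes1 had no close match, at 0.609 with Hoxb3os and 0.677 with Rasgrp2.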

How the data were processed

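The authors deposited, for each of the 4 libraries, a matrix of whole-number UMI counts per gene and droplet, filtered and unfiltered, made with Cell Ranger 7.01 on mm10 (GRCm38.p5) per the labels; intronic reads were included. Gene positions were read from GENCODE's annotation of GRCm38 and promoters from RefSeq on GRCm38.p6. The deposited summary tables also give percent values of read mapping, which were used to see that 64.7 to 67.3% of reads mapped to the transcriptome against 49.0 to 51.4% to exons.

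The 10 genes, the pathway list and the tests were chosen with earlier results of these data known. Cells with more than 1000 detected genes and at most 20% mitochondrial UMIs were kept. The automatic doublet threshold marked 82 cells (0.8%), so the top 3.9% by score (399) were removed. Clusters were made with scanpy 1.11.5 and leidenalg 0.10.2 (3500 variable genes, 35 components, resolution 1, 45 components within a lineage) and named from fixed marker lists. The naming thresholds (at least 3 markers detected in at least 20% of cells, a lineage score of 0.2 or a class score of 0.5) were set after seeing the data, 438 cells got no lineage, and names may differ from the study's. UMI counts, without 97 ribosomal protein and haemoglobin genes, were summed per library and cell type and tested with edgeR 4.0.16 (R 4.3.3, TMM, filterByExpr, quasi-likelihood F test, two-sided, threshold 0.05). The difference between lineages was tested in 1 edgeR fit with the library as a block. DESeq2 1.42.0 served as an alternative. On counts simulated from these sums, with 200 genes changed per lineage, edgeR recovered 48.4% (TEC, 18393 genes), 80.4% (FB, 13579) and 73.2% (EC, 10978) of genes changed by 2 on the log2 scale. Of those changed by 1 it recovered 1%, 44.3% and 16.5%. In the measured TEC 4048 genes passed, so the simulated TEC shares do not give the power of that fit.

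All Notch genes are named, other pathway genes where they passed, and like genes as the 1 to 3 highest correlations of log2(CPM + 1). Alternatives were other size factors, DESeq2, no filter, the library number as a block, each library left out, shared barcodes kept once, thinning to 2000 UMIs, subtraction of empty-droplet RNA, no doublet removal, more than 500 genes and a doubled sub-clustering resolution. The share of empty-droplet RNA subtracted from each sum was the lower of its estimates from haemoglobin and from haematopoietic genes. Leaving out the aaTEC-like or mTEC2-like cells, EC cluster 7 or FB clusters 0 and 3 was chosen after seeing the data. Genes on the opposite strand overlap Dll4, Notch1 and Notch3 and have rows of their own.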

Additional observations from a re-analysis of the deposited data

Results flagged for a closer look

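A test of the difference itself found that the genotype difference was not the same in a pair of lineages for 7 combinations of gene and lineages. FB minus TEC was -2.05 for Dll1, -1.01 for Notch1, -2.81 for Notch3, 3.09 for Notch4 and -0.77 for Hes1, on the log2 scale. EC minus TEC was 1.87 for Dll4, and EC minus FB was 2.55 for Notch3. The 10 genes were tested in each of 3 pairs of lineages, and 5, 1 and 1 passed, against 12.8%, 6.5% and 0.34% of all genes for FB minus TEC, EC minus TEC and EC minus FB. All come from 1 edgeR fit with adjusted p under 0.05 over all 17648 genes. The Dll1 value goes with FB cluster 3, which holds mostly WT cells, and the EC minus FB value of Notch3 with EC cluster 7, which carries mural markers. Neither cluster was left out of the interaction fit, so its part in these values was not tested there. The Notch4 value rests on 3, 3, 40 and 22 fibroblast UMIs. Each of the 7 has a lineage in which Z/Z and WT sums also differ in the classes they hold.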

How the results depend on the processing

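Genes called in TEC, 4048 as reported, numbered 2315 with the replicate block, 2448 without both aaTEC-like classes, 871 without mTEC2-like cells and 0 to 4203 with a library left out (1275 without Z/Z 2, and 0 by edgeR without Z/Z 1, where 4557 had an unadjusted p under 0.05). Notch genes called in TEC, 3 as reported, numbered 0 without mTEC2-like cells (4 unadjusted) and 0 to 3 with a library left out (0 without Z/Z 1, 1 without Z/Z 2). In FB, 391 genes became 1328 with no filter, 147 in thinned cells and 0 to 185 with a library left out (135 without WT 1, 0 without Z/Z 1 or Z/Z 2, with 1873 and 1331 unadjusted). The 1 Notch gene in FB became 2 with DESeq2's size factors, empty-droplet subtraction or over 500 genes, 3 with DESeq2 or the replicate block, 5 with no filter, and 0 in thinned cells (3 unadjusted) or with any library left out (4 to 5 unadjusted). In EC, 217 genes became 723 with no filter, 362 with the replicate block, 70 thinned, 418 with empty-droplet subtraction, 98 with over 500 genes, 133 without EC cluster 7 and 74 to 472 with a library left out (462 when WT 1 and 472 when WT 2 was dropped, 74 when Z/Z 1 and 121 when Z/Z 2 was). The 1 Notch gene in EC became 0 thinned (0 unadjusted), with empty-droplet subtraction (3), with over 500 genes (1) or without EC cluster 7 (1), and 0 to 1 with a library left out (0 without WT 1, Z/Z 1 or Z/Z 2). DESeq2 gave Notch3 in EC no adjusted p. The 2 calls within classes became 1 with DESeq2's size factors or over 500 genes, 0 with DESeq2 or thinned (2 and 3 unadjusted in medullary-like cells), 4 with no filter, 0 to 4 with a library left out (0 when WT 1, 4 when WT 2 and 1 when Z/Z 2 was dropped), and 0 at the doubled resolution, where no medullary-like class had 20 cells in every library. The 7 interaction calls became 11 with no filter and 3 to 7 with a library left out (4 without WT 1, 3 without Z/Z 1).

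Of 579 alternative values for 45 fold changes and interactions, 490 kept direction and call, 46 lost the call, 19 gained it and 24 turned in sign, the last all for values that had not passed. Without mTEC2-like cells TEC values became -0.31 (Dll1), -0.51 (Jag1), -0.73 (Jag2), -0.36 (Notch2) and 0.25 (Notch4). Thinning gave -0.04 for TEC Jag2. With a library left out, values that turned ranged from -0.10 to 0.31 (TEC Jag1), -0.61 to 0.15 (TEC Hes1), -0.71 to 0.85 (FB Hey1), -0.53 to 1.36 (EC Jag1), -0.43 to 0.47 (EC Jag2), -0.33 to 0.58 (EC Notch4) and -0.70 to 0.07 (EC Hes1). EC Notch2 ranged from -0.08 to 8.25, the latter without WT 1, where the remaining WT library held no Notch2 UMI, so it is no estimate of a fold. FB Hey1 was -0.07 with DESeq2, -0.15 with empty-droplet subtraction and -0.09 with over 500 genes, FB Notch3 was 0.25 without FB cluster 3, and EC Jag1 was 0.01 with the replicate block. The cause was not tested for the others.

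Deviations of same-numbered libraries correlated at -0.0840 (TEC), -0.0411 (FB) and -0.0102 (EC). With 2 libraries per genotype this cannot tell whether same-numbered libraries share a batch, and the replicate block is given as an alternative. Under it Hey1 in TEC was 1.19 (adjusted p = 0.0936, edgeR), Jag1 in FB -0.88 (adjusted p = 0.0487) and Hes1 in FB -1.03 (adjusted p = 0.0474), and 4 other pathway genes passed in TEC against 11 as reported. Planned mural fits were not run, because WT 2 held 11 mural cells. A fit with a library left out assumes that the lone library varies like the other genotype. WT 2 limits precision, with 25 endothelial and 22 medullary-like cells. With 2 libraries per genotype and only 200 genes changed, 1% of simulated differences of 1 on the log2 scale were recovered in TEC. Since 4048 genes passed in the measured TEC, that share does not give the power of the measured fit.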
